A study of Homo sapiens with 12 samples.

Results

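Transcript signals of 5 genes for carriers of the heme precursor 5-aminolevulinic acid (5-ALA) and related substrates are described here in MDA-MB-231, an established human line of triple-negative breast cancer. The genes are the peptide transporters SLC15A1, SLC15A2 and SLC15A4, the proton-coupled amino acid transporter SLC36A1 and the taurine transporter SLC6A6. They were chosen by name, as the probe sets whose gene symbol in the deposited table is one of these, which gave 5 probe sets of the 28869 on the array, 1 for each gene. Total RNA of 12 samples was hybridised, 3 in each of 4 groups. Untreated cells received neither 5-ALA nor siRNA. Cells of the second group received 0.1 mM 5-ALA only. The third received 0.1 mM 5-ALA and 15 nM of an siRNA against FECH, the gene of ferrochelatase, and the last 0.1 mM 5-ALA and 15 nM of the Allstar control siRNA. The FECH siRNA was a single 19-nucleotide sequence, gaauauccucuugguuccg, and there was no group with an siRNA but without 5-ALA. Nothing in the labels tells separate cultures from repeated measurements of the same culture, so the tests below speak only for the spread between these arrays, and their small number limits the precision of every value.

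5-ALA is a small amino acid that cells make in their mitochondria from glycine and succinyl-CoA, and that they can also take up from outside. Given from outside it bypasses the regulated first step of heme synthesis, and protoporphyrin IX accumulates in many tumour cells, which is used in fluorescence-guided surgery and photodynamic therapy. Because 5-ALA resembles a dipeptide, the proton-driven peptide transporters PEPT1 (SLC15A1) of the intestine and PEPT2 (SLC15A2) of kidney and brain carry it. The proton-coupled transporter PAT1 (SLC36A1) also carries it, as does the sodium- and chloride-driven taurine transporter TauT (SLC6A6). PHT1 (SLC15A4) belongs to the same family as PEPT1 and PEPT2 but sits in endosomes and lysosomes, where it moves histidine and small peptides.

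SLC36A1 and SLC15A4 were higher in cells with FECH siRNA than in each of the other 5-ALA groups. SLC36A1 rose 2.48-fold and SLC15A4 rose 1.52-fold against the control siRNA. SLC6A6 did not differ detectably between the siRNAs, and against 5-ALA only it rose 1.20-fold with FECH siRNA, a call close to the threshold. With control siRNA it was also 1.20-fold higher than with 5-ALA only, which did not pass. SLC15A1 and SLC15A2 passed no test, and their signals lay in the lower part of the array's range. 5-ALA without siRNA gave no call for any of the 5 genes.

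Signals are given as log2 of the deposited values. To show where a signal lies on its array, the percentage of all 28869 probe sets with a lower signal on the same array is given beside it. Probe sets differ in how strongly they bind, so neither number ranks the transcripts of different genes by amount. The middle signal of the whole array, 7.29, serves as the reference level below which a signal is not shown to stand above background. SLC15A4, SLC36A1 and SLC6A6 lay above it on 12 of 12 arrays, and SLC15A1 and SLC15A2 below it on 12 of 12 arrays, so a filter at this level would keep 3 of the 5 genes. The spread within groups, pooled over the 4 groups, was 0.07 (SLC36A1), 0.08 (SLC15A2 and SLC15A4) and 0.11 (SLC15A1 and SLC6A6), as SD of log2 signal, where the median probe set had 0.09.

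**Figure D1:**
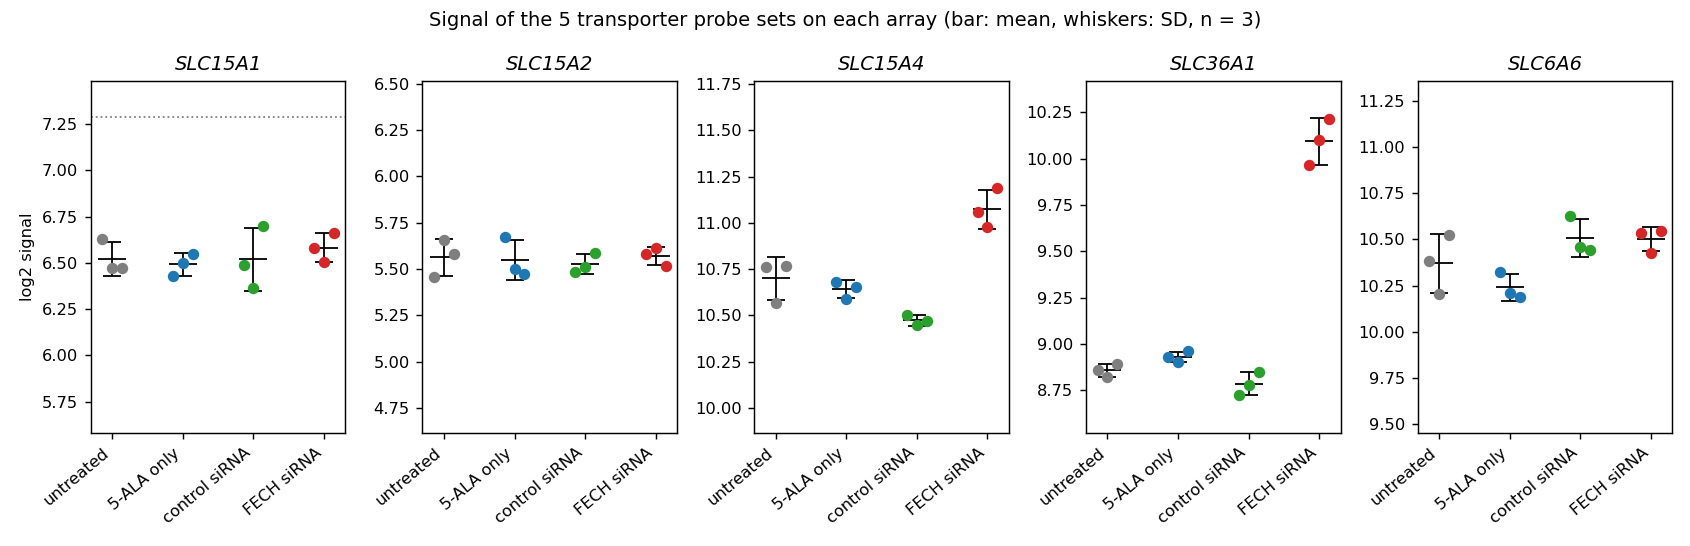
Log2 signal (vertical axis, each panel with its own range of equal height) of the 5 transporter probe sets on each of the 12 arrays by group, with the group mean as a bar and the SD as whiskers (n = 3); the dotted line in the first panel is the reference level, 7.29. The 3 FECH siRNA arrays of SLC36A1, at 9.96 to 10.21, and of SLC15A4, at 10.98 to 11.19, lie above all other arrays of the same gene.

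FECH, the target of the siRNA and the enzyme that inserts iron into protoporphyrin IX, had a log2 signal of 8.55 ± 0.05 with control siRNA and 6.53 ± 0.09 with FECH siRNA (SD, n = 3), 4.06-fold lower (limma adjusted p = 2.2e-08). HMOX1, which breaks heme down, rose 4.03-fold with 5-ALA only against untreated cells (limma adjusted p = 1.2e-04). The array medians lay between 7.25 and 7.34. Of the markers of the line, the mesenchymal and basal genes VIM, CD44, EGFR, MSN and AXL were above the reference level on all arrays and the hormone receptors ESR1 and PGR below it on all, while ERBB2 and EPCAM were above it on all and CDH1 on 7 of 12. Of the 6 intestinal and kidney markers, 3 were below it on all arrays (VIL1, FABP2 and UMOD), CDX2 and LGALS4 were above it on 11 of 12, and their summed linear signal was 1112 to 1279 with FECH siRNA and 920.4 to 1081 in the other groups, with PAX8 above it on all and highest with FECH siRNA. The leukocyte gene PTPRC and the T cell gene CD3E were below it on all arrays, while CD14, a monocyte gene, was above it on all and lowest with FECH siRNA. The summed signal of the 4 blood markers was 1080 to 1097 with FECH siRNA and 1507 to 1861 elsewhere, and that of the 3 endothelial markers 365.6 to 382.7 against 451.4 to 574.9, where PECAM1, above the level on 11 of 12 arrays, was lowest with FECH siRNA, CDH5 was above it on 1 and VWF on 0. Of the 4 fibroblast markers COL1A1 and PDGFRB were above the level on all arrays, COL1A2 on 4 and DCN on 0. Their summed signal was 1346 to 1401 with control siRNA and 1083 to 1213 in the other groups, among which FECH siRNA, at 1116 to 1200, overlapped untreated cells and 5-ALA only. The part of these markers in the results below was not tested.

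SLC36A1 encodes PAT1, which carries small amino acids together with protons, at the surface of epithelial cells and out of lysosomes. The log2 signals of its probe set 8109350 were 8.86, 8.82 and 8.89 in untreated cells and 8.93, 8.90 and 8.96 with 5-ALA only. With control siRNA they were 8.73, 8.78 and 8.85, and with FECH siRNA 9.96, 10.10 and 10.21. All 3 FECH siRNA arrays thus lay above the 9 others, among which the whole range was 8.73 to 8.96. On the linear scale the signal ran from 999.2 to 1188 with FECH siRNA and from 423.2 to 497.5 on the other arrays.

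Against control siRNA the difference in SLC36A1 was 1.31 on the log2 scale (SE 0.06, 95% confidence interval 1.17 to 1.45), a 2.48-fold rise with an interval of 2.25 to 2.73 (limma adjusted p = 1.1e-07). Against 5-ALA only it was 1.16 (SE 0.06, interval 1.02 to 1.30), 2.24-fold (limma adjusted p = 2.3e-07). By size of rise SLC36A1 stood at place 61 of 28869 probe sets against control siRNA and at place 75 against 5-ALA only. Of all probe sets 0.502% passed the test and were at least 2-fold higher against control siRNA. The exact two-sided permutation test of 3 against 3 arrays gave p = 0.1 in both comparisons, the smallest value that this design allows. In position on the array, the signal moved from above 72.9% ± 1.0 of the probe sets with control siRNA to above 87.7% ± 1.2 with FECH siRNA (SD, n = 3).

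Among the other groups the order of SLC36A1 was 5-ALA only (8.93 ± 0.03), untreated (8.86 ± 0.03) and control siRNA (8.78 ± 0.06; SD, n = 3 each). 5-ALA only lay 0.07 above untreated cells without overlap of the arrays (95% confidence interval -0.06 to 0.21), and did not pass (limma adjusted p = 1.00). Control siRNA lay below 5-ALA only without overlap, by -0.15 (interval -0.28 to -0.01), and did not pass either (limma adjusted p = 0.334). The ranges of untreated cells and control siRNA overlapped.

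SLC15A4 encodes the lysosomal transporter PHT1, which in immune cells holds the adaptor TASL and takes part in signalling of endosomal Toll-like receptors. The log2 signals of its probe set 7967624 were 10.76, 10.57 and 10.77 in untreated cells and 10.68, 10.59 and 10.65 with 5-ALA only. They were 10.50, 10.45 and 10.47 with control siRNA, and 11.06, 10.98 and 11.19 with FECH siRNA. The FECH siRNA arrays again were the highest 3 of the 12, and the control siRNA arrays the lowest 3.

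The difference between FECH siRNA and control siRNA in SLC15A4 was 0.60 on the log2 scale (SE 0.07, 95% confidence interval 0.45 to 0.75), a 1.52-fold rise with an interval of 1.37 to 1.68 (limma adjusted p = 6.3e-05). Against 5-ALA only it was 0.43 (SE 0.07, interval 0.28 to 0.58), 1.35-fold (limma adjusted p = 7.9e-04). These are comparisons with a shared FECH siRNA group, not separate repeats. Control siRNA lay below 5-ALA only by -0.17 (interval -0.32 to -0.02), and this did not pass in limma (unadjusted p = 0.030, adjusted p = 0.291). 5-ALA only and untreated cells overlapped, with a difference of -0.06 (interval -0.21 to 0.09). The probe set stood above 91.0% ± 0.1 of all probe sets with control siRNA and above 94.8% ± 0.6 with FECH siRNA (SD, n = 3).

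SLC6A6 encodes TauT, which brings taurine and beta-alanine into cells with sodium and chloride. The log2 signals of its probe set 8078014 were 10.38, 10.21 and 10.53 in untreated cells and 10.33, 10.21 and 10.19 with 5-ALA only. They were 10.62, 10.46 and 10.44 with control siRNA, and 10.54, 10.42 and 10.54 with FECH siRNA. Both siRNA groups lay above 5-ALA only without overlap, and the untreated arrays spanned the range from the 5-ALA arrays up to the siRNA arrays.

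FECH siRNA and control siRNA did not differ detectably in SLC6A6: the difference was -0.01 on the log2 scale with a 95% confidence interval of -0.19 to 0.17 (limma adjusted p = 0.979), which in fold terms allows 0.879 to 1.13. Against 5-ALA only, FECH siRNA was higher by 0.26 (SE 0.08, interval 0.08 to 0.44), 1.20-fold, at a limma adjusted p of 0.0496. Control siRNA was higher by 0.27 (SE 0.08, interval 0.09 to 0.45), also 1.20-fold, but did not pass (limma adjusted p = 0.151). The unadjusted p was 0.0083 for FECH siRNA and 0.0072 for control siRNA, in comparisons where 16.8% and 1.72% of all probe sets passed. The call for FECH siRNA ended in 13 of 25 alternatives, with limma adjusted p up to 0.150 without 5-ALA only replicate 3. It also ended without any other replicate of the 5-ALA only or FECH siRNA groups (0.052 to 0.142), without untreated replicate 1 (0.064) or control siRNA replicate 2 (0.063) or 3 (0.058). After centring of the arrays on their medians it was 0.073, after cyclic loess 0.067, after quantile normalization 0.056 and with robust variance 0.0503. 5-ALA only lay below untreated cells by -0.13 (interval -0.31 to 0.05) and did not pass (limma adjusted p = 1.00).

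SLC15A1 and SLC15A2 encode PEPT1 and PEPT2, the carriers best known for taking up dipeptides and peptide-like drugs in intestine and kidney. SLC15A1 (probe set 7972461) had log2 signals of 6.63, 6.47 and 6.47 in untreated cells, 6.43, 6.50 and 6.55 with 5-ALA only, 6.49, 6.36 and 6.70 with control siRNA and 6.58, 6.51 and 6.66 with FECH siRNA. SLC15A2 (probe set 8082012) had 5.46, 5.65 and 5.58 in untreated cells, 5.67, 5.50 and 5.47 with 5-ALA only, 5.48, 5.51 and 5.58 with control siRNA and 5.58, 5.61 and 5.52 with FECH siRNA. In both genes the arrays of all 4 groups overlapped.

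Averaged over the 12 arrays, SLC15A1 stood above 35.7% of the probe sets and SLC15A2 above 18.2%. Neither is shown to be above background, so an equal signal in 2 groups is not evidence of equal transcript. The 4 differences tested in SLC15A1 ran from -0.03 (5-ALA only against untreated) to 0.09 (FECH siRNA against 5-ALA only) on the log2 scale, and their 95% confidence intervals stayed within -0.21 and 0.27. In SLC15A2 they ran from -0.02 to 0.04, with intervals within -0.17 and 0.19. The limma adjusted p was 0.614 or above in each of these 8 tests.

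Set against the array as a whole, 2 of the 5 transporters passed the test as higher with FECH siRNA than with control siRNA, and 0 as lower, in a comparison where 17.8% of all probe sets passed and 9.29% passed as higher. Calls were more frequent among brighter probe sets. Above the reference level on at least 3 arrays 5078 of 15032 passed, 2675 of them as higher, and above the 70th percentile 4070 of 9267. Each of these filters kept 3 transporters, of which 2 passed. FECH siRNA and control siRNA arrays did not overlap in the same 2 transporters, against 31.9% of all probe sets. Against 5-ALA only, 3 passed as higher and 0 as lower, where 16.8% of all passed, 9.0% passed as higher and 30.4% did not overlap. Control siRNA against 5-ALA only gave 0 calls with limma, while 3 of the 5 had an unadjusted p below 0.05. Of all probe sets 1.72% passed there (217 higher and 279 lower, or 120 and 371 after median centring), 13.6% had such an unadjusted p, and 3 transporters against 18.4% of all probe sets did not overlap. 5-ALA only against untreated cells gave 0 calls with limma and 0 unadjusted p below 0.05 among the 5, where 0.00693% of all probe sets passed and 3.11% had an unadjusted p below 0.05. The arrays of these 2 groups did not overlap in 1 transporter, SLC36A1, against 7.62% of all probe sets. The median difference over the 5 genes was 0.06 for FECH siRNA against control siRNA, beside -0.02 over all probe sets, and 0.26 beside 0.01 against 5-ALA only. These medians describe the set and no more.

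**Figure D2:**
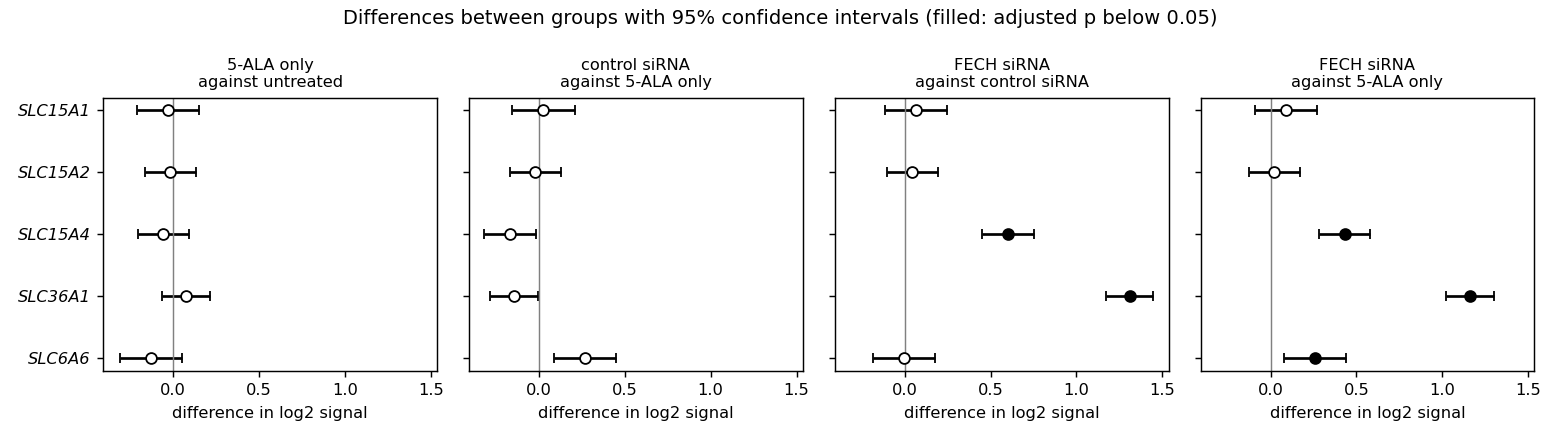
Differences in log2 signal (horizontal axis) of the 5 transporters in the 4 comparisons, with 95% confidence intervals from limma; filled points have an adjusted p below 0.05. SLC36A1, at 1.31 and 1.16, and SLC15A4, at 0.60 and 0.43, are filled in both comparisons with FECH siRNA, and SLC6A6, at 0.26, in the comparison with 5-ALA only.

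The rise of SLC36A1 can be set beside the rest of the solute carriers, the superfamily of membrane transporters to which all 5 genes belong. This list was added after the data were seen. The array holds 367 genes whose symbol has the SLC form, and against control siRNA 41 of them passed as higher and 50 as lower with FECH siRNA (24.8%, beside 23.0% of all probe sets with a single gene symbol), with a median difference of -0.03. SLC36A1 stood at place 2 among the 367 by size of rise and SLC15A4 at place 10, while SLC15A1, SLC15A2 and SLC6A6 stood at places 101, 109 and 155. The gene above SLC36A1 was SLC16A6, of the monocarboxylate transporter family, at 2.15 (SE 0.47), whose error was wider.

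**Figure D3:**
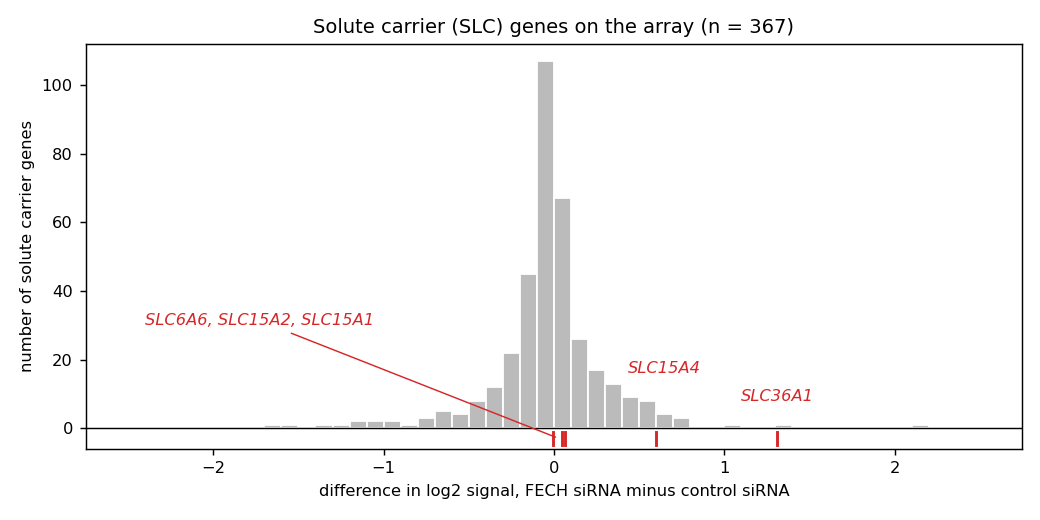
Number of solute carrier genes (vertical axis) by difference in log2 signal between FECH siRNA and control siRNA (horizontal axis, bins of 0.1), with red ticks for the 5 transporters. SLC36A1, at 1.31, and SLC15A4, at 0.60, lie to the right of most of the 367 genes, and SLC6A6, SLC15A2 and SLC15A1 lie in the central peak.

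Among the closest relatives of the members, 0 passed as higher with FECH siRNA. Of all probe sets 9.29% passed as higher against control siRNA and 9.0% against 5-ALA only. Means above the reference level, where calls were more frequent, were found in 1 of 2 SLC15 and 1 of 3 SLC36 relatives. In the SLC6 family they were found in 1 of 5 genes of the GABA and taurine branch and 2 of 13 others. SLC36A2, SLC36A3 and SLC36A4, which encode the other transporters of the PAT family, gave 0 calls in limma in any of the 4 comparisons, with an unadjusted p below 0.05 for 1 of them in control siRNA, and for 1 in FECH siRNA, against 5-ALA only. SLC36A4, at a mean log2 signal of 9.57, had the lowest adjusted p against control siRNA (difference -0.22, limma adjusted p = 0.183). SLC36A2 (0.13) and SLC36A3 (-0.05) lay below the reference level, at means of 6.40 and 5.52, and they are also the nearest genes on the same side of SLC36A1 on chromosome 5. On its other side, FAT2 had a difference of -0.02 and SPARC, a matrix protein whose mean signal of 6.77 lay below the reference level, rose by 0.42 (limma adjusted p = 1.5e-04). Around SLC15A4 on chromosome 12, TMEM132C, TMEM132B, GLT1D1 and TMEM132D ranged from -0.13 to 0.08. In limma 0 of the 4 passed, where 17.8% of all probe sets passed, with an unadjusted p of 0.049 for GLT1D1. The means of these 4, at 6.75, 5.63, 5.79 and 7.00, and of FAT2, at 5.90, lay below the reference level. The absence of a call in them is therefore not evidence of equal transcript. These neighbours were looked up after the members' values were seen.

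In the peptide transporter family, SLC15A3, a lysosomal relative of SLC15A4, fell by 0.21 on the log2 scale against control siRNA (limma adjusted p = 0.042), in the direction opposite to SLC15A4, and SLC15A5 was at 0.01. Against 5-ALA only SLC15A3 was at -0.05 with overlapping arrays and did not pass (limma adjusted p = 0.792), whereas SLC15A4 passed in both comparisons. In the branch of the SLC6 family that carries GABA, taurine, betaine and creatine, 0 of 5 relatives of SLC6A6 passed in limma, and 0 had an unadjusted p below 0.05, in any comparison. SLC6A12, the betaine transporter, had the lowest adjusted p (-0.14, limma adjusted p = 0.261), and SLC6A13, the GABA transporter GAT2 that also carries 5-ALA, was at 0.03 with a mean signal of 6.55, below the reference level. Of the 13 genes of the other SLC6 branches, 1 fell against control siRNA, the amino acid transporter SLC6A14, by 0.48 (limma adjusted p = 0.012) at a mean signal of 5.61, below the reference level, and it did not pass against 5-ALA only (-0.14, limma adjusted p = 0.562). The glycine transporter SLC6A9 fell by 0.36 against 5-ALA only (limma adjusted p = 0.037).

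**Figure D4:**
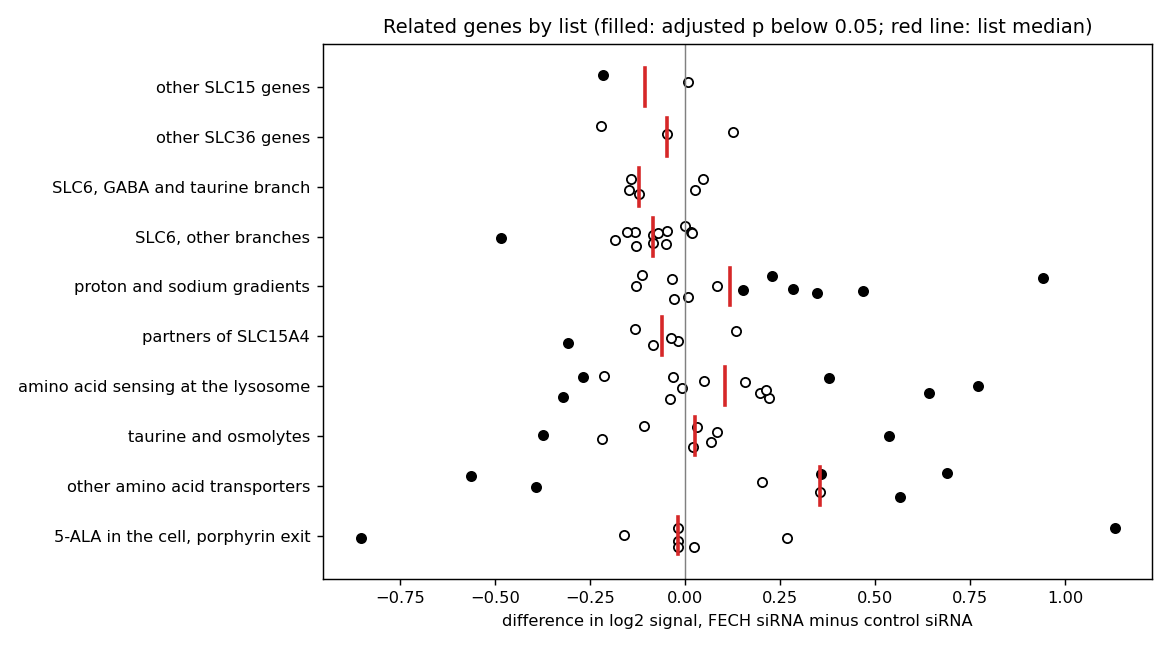
Differences in log2 signal between FECH siRNA and control siRNA (horizontal axis) of genes related to the transporters, by list; each point is a gene, filled where its adjusted p is below 0.05, and the red line is the list's median. The list medians run from -0.12 (SLC6, GABA and taurine branch) to 0.35 (other amino acid transporters), and the 3 transporter families hold 2 filled points, both below 0.

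The members draw on gradients that other proteins set up: proton exchangers acidify the outer face of the membrane for PEPT1 and PAT1, and the sodium pump drives TauT. Of 12 genes of this kind 6 rose and 0 fell with FECH siRNA against control siRNA. Their median was 0.12, beside -0.02 for all probe sets. In this comparison 23.0% of all probe sets with 1 gene symbol passed. Of the 12 genes 8 had a mean above the reference level, and 5078 of 15032 probe sets above it on at least 3 arrays passed. NHERF1, a scaffold protein that binds membrane transporters, rose by 0.35 (limma adjusted p = 0.0043) and ATP1B3, a beta subunit of the sodium pump, by 0.28 (limma adjusted p = 0.025). Against 5-ALA only 4 of the 12 rose and 0 fell (33.3%, where 21.9% of all probe sets with 1 gene symbol passed), and NHERF1 did not pass (0.08, limma adjusted p = 0.610).

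At the lysosome SLC36A1 and SLC15A4 work beside the machinery that reports amino acids to the kinase complex mTORC1. Of 14 genes of it 3 rose and 2 fell against control siRNA, with a median of 0.10. Against 5-ALA only 6 rose and 1 fell, with a median of 0.15. Of all probe sets with 1 gene symbol 23.0% and 21.9% passed in these comparisons. All 14 genes had a mean above the reference level, where calls were more frequent. RRAGD, a Rag GTPase, rose by 0.77 (limma adjusted p = 6.1e-06) and RPTOR, the subunit of mTORC1 that binds the Rag GTPases, by 0.64 (limma adjusted p = 2.4e-05). FLCN, the folliculin that acts on the Rag GTPases, rose by 0.38 (limma adjusted p = 0.041). The arginine sensor SLC38A9 fell by 0.32 (limma adjusted p = 0.0098), and LAMTOR5, a subunit of the Rag anchor, fell by 0.27 (limma adjusted p = 0.042). Against 5-ALA only FLCN (0.30, limma adjusted p = 0.116) and SLC38A9 (-0.03, limma adjusted p = 0.899) did not pass. Of 6 measured partners of SLC15A4 in immune signalling 0 rose and 1 fell against control siRNA, 16.7% beside the same 23.0%. The one that fell was the adaptor MYD88, by 0.31 (limma adjusted p = 0.0022). MYD88 did not pass against 5-ALA only (-0.12, limma adjusted p = 0.234), and TASL, TLR7, TLR8 and IRF5 lay below the reference level on average.

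For taurine and other osmolytes, 1 of 8 genes rose against control siRNA, the thiol dioxygenase ADO, by 0.54 (limma adjusted p = 6.2e-04), and 1 fell, the aldose reductase AKR1B1, by 0.37 (limma adjusted p = 2.4e-04). Of 7 measured carriers of other amino acids 3 rose and 2 fell (71.4%, beside the same 23.0%). All 7 had a mean above the reference level, and 5078 of 15032 probe sets above it on at least 3 arrays passed. The neutral amino acid exchangers SLC1A4 and SLC1A5 rose by 0.69 and 0.57 and the glutamine transporter SLC38A1 by 0.36, while SLC38A2, of the same family, fell by 0.56 and the cationic transporter SLC7A1 fell by 0.39. Against 5-ALA only 0 of these 7 carriers rose and 2 fell (28.6%, beside 21.9%), SLC38A2 by 0.84 and SLC7A1 by 0.48. Of 8 genes that handle 5-ALA or porphyrins inside the cell, 1 rose against control siRNA, ALAS1, which makes 5-ALA, by 1.13, and 1 fell, the mitochondrial transporter ABCB10, by 0.85 (limma adjusted p of 2.5e-05 and 4.2e-06). The mitochondrial carrier SLC25A38 was at -0.02 and ALAD, which joins 5-ALA molecules, at -0.16, and neither passed. In 5-ALA only against untreated cells, and in control siRNA against 5-ALA only, 0.00693% and 1.72% of all probe sets passed the limma test. An unadjusted p below 0.05 was found in 3.11% and 13.6% of them. Of the 78 measured genes of these 10 lists 0 passed in either comparison, and 5 and 15 had such an unadjusted p. Among the 5 was ALAS1, lower by 0.76 with 5-ALA only without overlap (limma unadjusted p = 2.9e-05, adjusted p = 0.208). Its mean log2 signal was 9.46 in untreated cells, 8.71 with 5-ALA only, 8.75 with control siRNA and 9.88 with FECH siRNA. The rise of ALAS1 above is thus from groups that lay below untreated cells.

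The patterns most like each member were ranked by Pearson's r over the 12 arrays among probe sets with a single gene symbol. The arrays share their groups, so r can reflect differences between the groups, and it is given as a description. It is therefore also given over the 9 arrays without FECH siRNA. Closest to SLC36A1 were CSRNP1, a nuclear protein (r = 0.99), the AP-1 transcription factor JUN (0.99) and the secreted protein SRPX2 (0.99). These 3 genes were higher with FECH siRNA than with control siRNA by 1.33, 1.10 and 0.97. Over the 9 arrays without FECH siRNA their r with SLC36A1 was 0.58, 0.52 and 0.73. In all, 695 of the probe sets had r above 0.9 with SLC36A1 over the 12 arrays.

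Closest to SLC15A4 were the Rag GTPase gene RRAGD (r = 0.97), PPTC7, a mitochondrial phosphatase (0.97), and the zinc finger gene ZNF100 (0.96), and over the 9 arrays without FECH siRNA these were 0.88, 0.88 and 0.94. All 3 had their lowest group mean with control siRNA and their highest with FECH siRNA, as SLC15A4 did. Closest to SLC6A6 were the transcription factor CASZ1 (r = 0.93), the kinase RIPK4 (0.92) and ATP6V1F, a subunit of the vacuolar proton pump (0.91), with 0.92, 0.90 and 0.90 over the 9 arrays. Only 5 probe sets had r above 0.9 with SLC6A6 over the 12 arrays, against 181 with SLC15A4. Between members, r was 0.91 for SLC36A1 and SLC15A4 over the 12 arrays and 0.61 over the 9, and for SLC36A1 and SLC6A6 it was 0.33 over the 12 and -0.66 over the 9.

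The stretches before the start sites of the 2 genes that rose are shown because SLC36A1 holds 2 copies of a motif there and SLC15A4 none. RefSeq windows on GRCh38.p14, of 250 bases before to 50 bases after each annotated start, were at hand for 4 of the 5 genes (5 windows, of which SLC36A1 has 2), and not for SLC6A6. The second SLC36A1 window, at chr5:151447353-151447602 on the plus strand, and that of SLC15A4, at chr12:128823959-128824208 on the minus strand, read as follows, 5′ to 3′ and up to the base before the start, with CACGTG in capitals.
SLC36A1: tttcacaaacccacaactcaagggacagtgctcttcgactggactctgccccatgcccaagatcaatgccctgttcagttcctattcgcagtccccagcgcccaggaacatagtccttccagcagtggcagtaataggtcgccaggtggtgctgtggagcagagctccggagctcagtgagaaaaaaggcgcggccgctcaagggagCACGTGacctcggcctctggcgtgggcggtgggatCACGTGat
SLC15A4: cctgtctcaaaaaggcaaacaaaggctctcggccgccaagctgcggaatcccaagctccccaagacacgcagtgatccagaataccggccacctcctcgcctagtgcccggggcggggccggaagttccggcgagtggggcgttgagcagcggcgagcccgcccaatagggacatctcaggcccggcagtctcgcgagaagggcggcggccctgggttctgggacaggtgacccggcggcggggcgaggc

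CACGTG, the palindromic E-box that basic helix-loop-helix factors such as MYC and the MiT/TFE family bind, occurs 2 times in that SLC36A1 window, 43 and 8 bases before the start. It occurs in 7.26% of all 35116 promoter windows, and 2 or more times in 0.664%. The other 4 windows, those of SLC15A1, SLC15A2 and SLC15A4 and the first of SLC36A1, hold no CACGTG. The longer TCACGTGA, which contains it, occurs once in the second SLC36A1 window and in 0.98% of all windows. TGACGTCA, the site of CREB and ATF factors (1.85% of all windows), and TGATGNAA, a form bound by ATF4 (3.62%), both searched like the others on both strands, have no match in the 5 windows. The windows also differ in composition, with 50.4% and 58.8% G and C before the first and second SLC36A1 starts, 68.4% in SLC15A4, 77.6% in SLC15A1 and 39.6% in SLC15A2, beside a median of 58.0% over all windows. These motifs were chosen after the members' values were seen, and a match is a description of the letters only.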

How the data were processed

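Biotin-labelled RNA of 12 samples was hybridised to arrays with 28869 probe sets. The deposited values are intensity on a linear scale, 21.0 to 23641, made by the authors with RMA in the oligo package, per the submitters' processing notes, with versions and genome build not given in the sources used here. Their log2 was taken, with a pseudocount of 0. Of the probe sets 19937 carry 1 gene symbol, and the symbols of 19309 were updated through their Entrez number. The workbook's 12 further columns per sample and 8 group means were not used. One mean per group was fitted over the 12 arrays with limma 3.58.1 in R 4.3.3 on all probe sets, without a filter, so that dim members were tested alike. p-values are two-sided and Benjamini-Hochberg adjusted over all probe sets within a comparison, with a threshold of 0.05. The fit was tested on simulated data.

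The probe set with the highest mean stands for a gene in the lists. Genes named are the members, FECH and HMOX1, up to 4 genes past the test per list against control siRNA or the one with the lowest p, genes past it against 5-ALA only as examples, and the 3 most similar patterns per member above the median level. Other genes named (remaining members of a family or of a list with 5 calls, dim partners, SLC6A13, SLC25A38, ALAD, SLC16A6 and the chromosomal neighbours) were chosen after their values were seen. Some genes that this rule names are not reported here. TLR9 and SLC3A2, in the lists, had no probe set with 1 symbol. The members and lists were chosen with earlier results of these data known. The alternatives were filters, variance options, array weights, other scalings, a pseudocount of 32, the deposited value table, runs of sample numbers (1 to 4 and so on) as a block, and leaving out each array.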

Additional observations from a re-analysis of the deposited data

How the results depend on the processing

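Each comparison was recomputed under 25 alternatives. Of 484 recomputed member differences, 453 kept their direction and their side of the threshold, 13 lost a call (all SLC6A6, FECH siRNA against 5-ALA only), 0 gained one and 18 changed sign, none of these past the test. SLC36A1 kept its calls, at 1.25 to 1.37 against control siRNA and 1.10 to 1.23 against 5-ALA only, and so did SLC15A4, at 0.54 to 0.65 and 0.37 to 0.48. The sign changes were in SLC15A1, SLC15A2 and SLC6A6. For FECH siRNA against control siRNA, SLC6A6 gave 0.0218 after median centring and -0.0396 to 0.0524 with an array left out (0.0321 without FECH siRNA replicate 2), and SLC15A1 -0.0123 to 0.1555. For 5-ALA only against untreated, leaving out an array gave -0.0602 to 0.0214 in SLC15A1 (0.0009 without 5-ALA only replicate 1) and -0.0784 to 0.03 in SLC15A2 (0.0096 and 0.0222 without 5-ALA only replicates 2 and 3). For control siRNA against 5-ALA only, SLC15A1 gave -0.0145 after median centring, -0.0193 after quantile normalization, -0.0242 after cyclic loess and -0.0646 to 0.1032 with an array left out (-0.0059 without 5-ALA only replicate 1), and SLC15A2 -0.0597 to 0.041 (0.0002 without control siRNA replicate 1). For FECH siRNA against 5-ALA only, SLC15A2 gave -0.0155 to 0.0852 (-0.0028 without 5-ALA only replicate 2). The cause of these changes was not tested.

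Over all probe sets, 5-ALA only against untreated gave 2 calls, 1 in a fit of only these groups and 1 to 3 with an array left out (1 without 5-ALA only replicate 3). Control siRNA against 5-ALA only gave 496, 305 in a fit of only these groups, 1099 with a replicate block for runs of sample numbers, and 239 to 698 with an array left out. The lower counts came without 5-ALA only replicates 1 (293), 2 (311) or 3 (239), or control siRNA replicates 2 (253) or 3 (291). The replicate block changed no member's call. Deviations of arrays in the same run correlated at 0.09 to 0.45, in different runs at -0.35 to 0.21, and 11 of 12 arrays had their best partner in another group in their own run, a hint from the data only. Ranked among probe sets with 1 symbol, SLC36A1 stood above 71.4% and SLC15A1 above 24.2%, rather than 77.4% and 35.7%.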
